A study of Mus musculus with 6 samples.

Results

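GABAergic interneurons are a small and diverse class of hippocampal neurons, and 31 genes by which they and their subtypes are commonly recognised were followed in the young (3M) and aging (22M) mouse hippocampus. The genes were taken from the transcript table by symbol, from a list drawn up with earlier results of these data known, and the FPKM (fragments mapped, scaled to the length of the transcript and to the total of the library) of all transcripts of a gene were summed. Of the 31 genes, 29 were found among the 13321 genes of the table and all 29 passed the minimum mean of 0.5 FPKM that left 13041 genes for testing. Sp8, a transcription factor of interneurons born in the caudal ganglionic eminence, and Chodl, a marker of long-projecting inhibitory neurons, were not in the table and were not analysed here.

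Interneurons use the transmitter GABA, which is made from glutamate by the decarboxylases Gad1 and Gad2 and loaded into synaptic vesicles by the transporter Slc32a1. They arise in the embryonic ganglionic eminences, where Dlx homeodomain factors set up the GABAergic fate, and Lhx6 and Satb1 in the medial eminence or Nr2f2 in the caudal eminence direct the later subtypes. Adult subtypes are told apart by the neuropeptides, calcium-binding proteins and surface molecules they make, such as somatostatin (Sst), parvalbumin (Pvalb), vasoactive intestinal peptide (Vip), cholecystokinin (Cck) and Reelin (Reln). In the hippocampus these cells control when and where pyramidal and granule cells fire.

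The samples were whole hippocampi of wild-type male C57 BL/6 mice, an inbred strain, with 3 libraries at 3 months of age (3M, the young group: J11, J13 and J15) and 3 at 22 months (22M, the aging group: 72, 76 and 78). Messenger RNA was selected with oligo beads and sequenced in strand-specific libraries. Nothing in the labels says that each library came from its own mouse, so each p-value reflects only how far libraries of one age differ, which may be technical. No read counts or depths are given with the FPKM, so the depth behind each value is unknown, and the total FPKM per library ran from 318024 (78) to 358073 (J13). RNA was taken from whole tissue, so fewer cells of a type and less RNA per cell cannot be told apart.

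The library J11 stood apart from the other 5. The summed FPKM of 15 striatal marker genes was 1430 in J11 and 80 to 121 in the others, and 14 of the 15 were highest in J11. The most abundant of them, Penk, was at 663 FPKM in J11 and 29.8 to 51.4 in the others. The dopamine receptor gene Drd2 was at 41.5 FPKM in J11 and 0.919 to 1.48 in the others, and the adenosine receptor gene Adora2a at 55.9 against 0.207 to 0.720. Pde10a was the striatal marker not highest in J11, at 4.81 FPKM there and 2.24 to 12.7 in the others. Striatal projection neurons are themselves GABAergic and use several of the genes studied here, so the difference of each member between the ages is given with and without J11. The markers of hippocampal excitatory neurons, 20 of 20 in the table, summed to 758 in J11 and to 807 to 949 in the others. Gene by gene, the ratio of J11 to the mean of the other 5 libraries had a median of 0.652 over this list. Other lists differed between libraries too. Oligodendrocyte markers (8 of 8 in the table) summed to 1180 to 1250 FPKM in 3M and 714 to 915 in 22M. Thalamic and habenular markers (18 of 19 in the table, Pou4f1 absent) summed to 133 to 210 FPKM in 3M and 81.4 to 99.6 in 22M. Choroid plexus markers summed to 137 in 78 and 1180 to 2870 elsewhere, and blood markers to 590 to 633 in 3M and 1330 to 2050 in 22M. At an adjusted p under 0.05 (limma), 5 of 8 oligodendrocyte and 4 of 17 thalamic and habenular genes tested fell, against 1.21% of all genes. Of 5 blood genes tested 5 rose, against 0.920% of all genes, and of 9 choroid plexus genes 0 rose or fell.

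**Figure D1:**
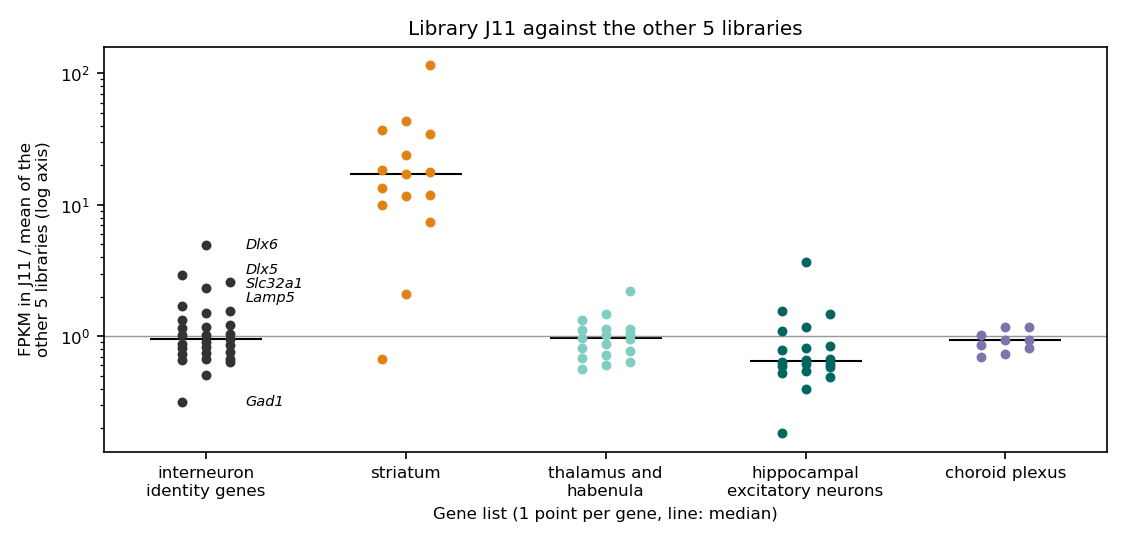
Each point is a gene, placed by its FPKM in J11 divided by its mean FPKM in the other 5 libraries (log axis), with a line at the median of each list. Striatal genes had a median of 17.3, the interneuron identity genes of 0.962 and the hippocampal excitatory neuron genes of 0.652. Of the 29 members, 4 (Dlx6, Dlx5, Slc32a1 and Lamp5) were more than 2-fold higher in J11, against 2.71% of all genes.

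Of the interneuron identity genes, 28 of 29 did not pass the test between the ages. Erbb4, the neuregulin receptor of interneurons, rose 2.32-fold and was the single member called, a call that was lost when any library was left out. Erbb4, Cort, Crhbp, Nos1, Nr2f2, Maf, Satb1, Reln and Ndnf (31% of the members) had higher values in all 22M libraries than in any 3M library. Sncg (3.45%) had lower ones. Over all genes these shares were 13.3% and 21.1%, and of the members named only Erbb4 passed the adjusted p. The genes of GABA synthesis and vesicular transport differed more among the 3M libraries than between the ages.

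In counts, 1 of 29 members rose (3.45%) and 0 fell at an adjusted p under 0.05 (limma, Benjamini-Hochberg over 13041 genes), against 0.920% and 1.21% of all genes tested. At an unadjusted p under 0.05, 8 members were higher and 1 was lower, against 10.6% and 16.4% of all genes. A model with each gene's own variance called 0 members and 0 of all genes in either direction, and at its unadjusted p 5 members were higher and 0 lower, against 9.06% and 14.9% of all genes. At the thresholds of the study (unadjusted p under 0.05 and a log2 difference beyond that of a 1.5-fold change), 5 members (17.2%) were higher and 1 (3.45%) lower, against 4.08% and 4.22% of all genes. The values of the ages did not overlap for 9 members (31%) that were higher in 22M and for 1 that was lower, against 13.3% and 21.1% of all genes. The log2 difference was above 0 for 18 of 29 members (62.1%, all genes 44.0%), with a median of 0.30 over the members and -0.05 over all genes. Without J11, 0 members rose or fell by limma, where 0.146% and 0.115% of 13012 genes did. At the unadjusted p 9 members were then higher and 0 lower, against 9.96% and 12.7% of all genes. At the study thresholds 6 were higher and 0 lower, against 4.48% and 3.78% of all genes, and the median was 0.27. Other single libraries moved the counts as well. Without J15, Cort was the 1 member that rose (1.39% of all genes), and 3 members were higher and 5 lower at the study thresholds (5.03% and 6.05% of all genes). The values of 6 were then lower without overlap (28.8% of all genes), and the median was 0.15. Leaving out 78 gave 3 higher and 0 lower (3.67% and 3.88% of all genes), and leaving out J13 gave 7 and 0 (3.45% and 3.46%).

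**Figure D2:**
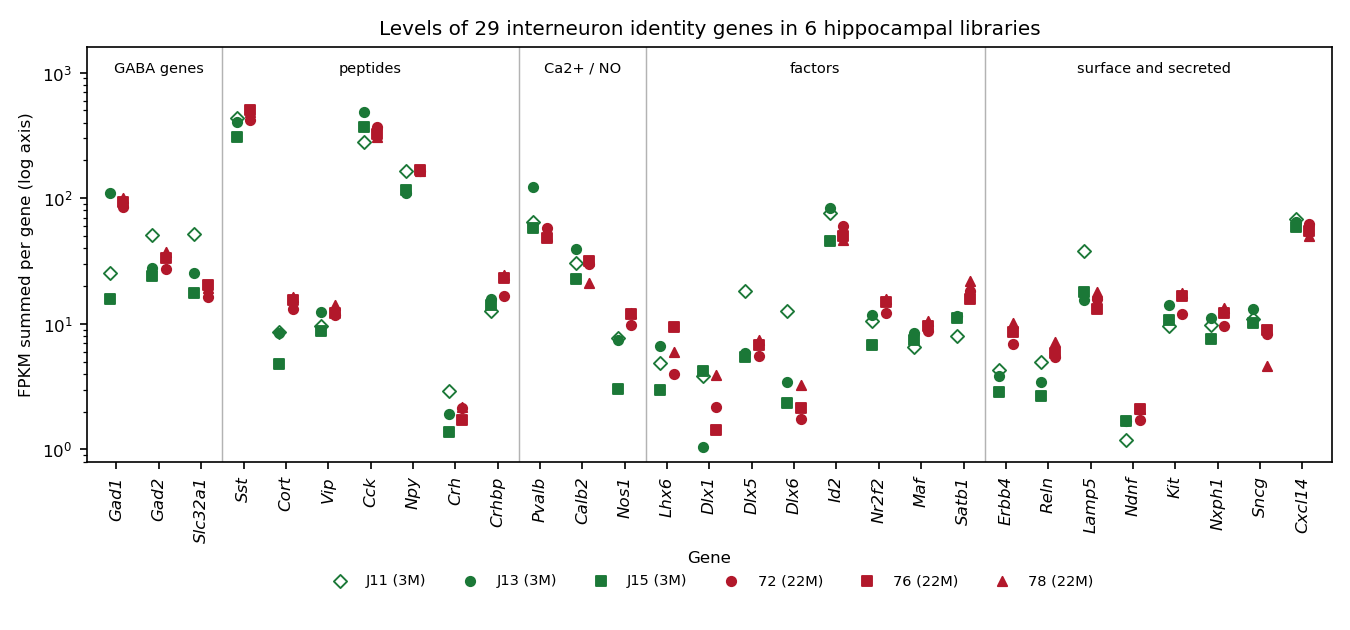
FPKM per gene (log axis) of the 29 members in the 3M (green) and 22M (red) libraries, 1 marker shape per library and J11 as open diamonds, grouped by role. Sst, Cck and Npy were the most abundant at 110 to 507 FPKM, and Crh and Ndnf the least, at 1.19 to 2.90 FPKM.

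The enzymes and the transporter that make a neuron GABAergic did not change together. Gad1, the decarboxylase that supplies most of the GABA in the brain, was at 25.6 FPKM in J11, 110 in J13 and 15.8 in J15, and in 22M it was at 85.9 (72), 93.8 (76) and 101 FPKM (78). J11 and J15 were thus far below the other libraries, while J13 exceeded every 22M library. Between the ages this gave a log2 difference of 1.38 (SE 0.649, adjusted p = 0.226), and 1.15 without J11 (adjusted p = 0.403). The highest 3M value of Gad1 was 6.97 times the lowest, while the ratio in 22M was 1.18, and among the 5326 genes whose mean reached 10 FPKM, 23 (0.432%) had a ratio in 3M at or above that of Gad1.

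The spread of Gad1 lay in its full-length transcript. Gad1-201 (chr2:70562042-70602014, plus strand, GRCm38; 17 exons, 3355 bases) was at 12.1 FPKM in J11, 106 in J13 and 2.26 in J15, against 72.5 to 94.3 FPKM in 22M. It made up 14.3% of the gene's FPKM in J15, 47.3% in J11 and 84.4% to 96.3% in the others. Gad1-202, Gad1-204 and Gad1-205 are shorter transcripts that end within the gene, and Gad1-204 reached 7.16 FPKM in J15 against 0.0561 to 2.49 elsewhere. The GENCODE annotation also holds Gad1-206, a non-coding transcript of 16 exons that ends within a few bases of Gad1-201. It was not in the table of protein-coding transcripts and not analysed here, and how fragments were divided between such transcripts was not tested.

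Gad2, the decarboxylase concentrated at nerve terminals, was at 50.8, 28 and 23.9 FPKM in 3M and at 27.5, 33.7 and 37.0 FPKM in 22M. J11 was the highest of all, and the remaining 3M values were at or below most 22M values. The log2 difference was 0.00 (SE 0.279, 95% interval -0.66 to 0.67, adjusted p = 0.999), and 0.32 without J11 (-0.06 to 0.70, adjusted p = 0.278). Slc32a1, the vesicular GABA transporter, was at 51.8, 25.6 and 17.5 FPKM in 3M and at 16.5, 20.3 and 19.4 FPKM in 22M. Its J11 value was 2.61 times the mean of the other 5 libraries, among which the ages overlapped. The log2 difference of -0.60 (SE 0.363, adjusted p = 0.328) became -0.18 without J11 (adjusted p = 0.597). Of the 3 genes none was called by limma, none had an unadjusted p under 0.05, and the own-variance model gave the same counts.

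**Figure D3:**
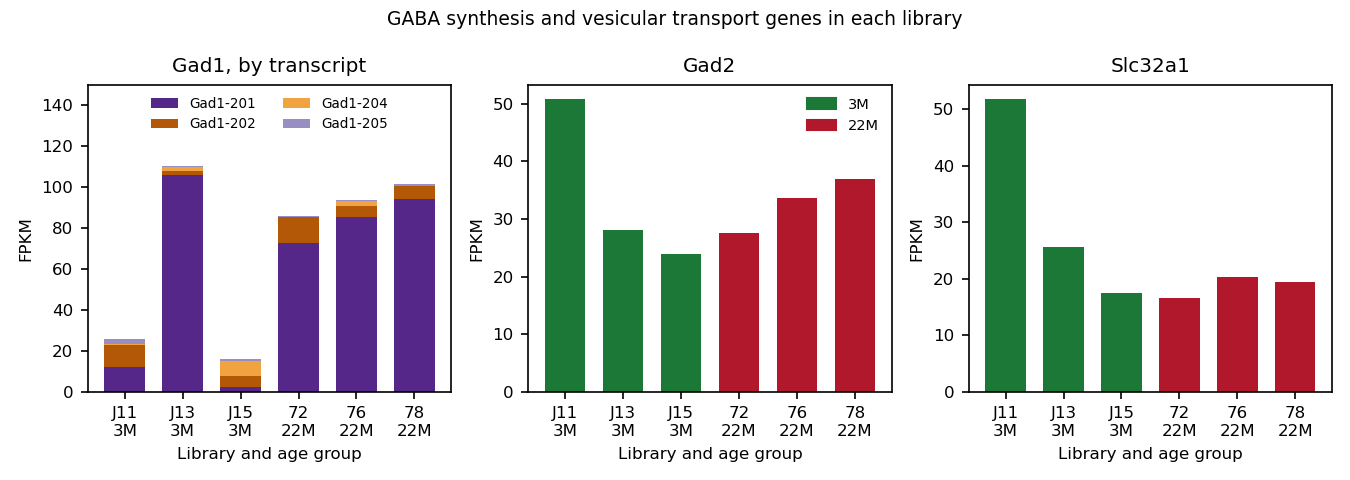
Bars give the FPKM of Gad1 (stacked by transcript), Gad2 and Slc32a1 in each library (3M green, 22M red in the panels of Gad2 and Slc32a1). Gad1-201 almost vanished in J15 (2.26 FPKM) and was at 106 in J13, while Gad2 and Slc32a1 were highest in J11 (50.8 and 51.8 FPKM).

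Among the neuropeptides, Sst, Cort, Npy, Vip and Crhbp had log2 differences above 0, and the gap was widest for Cort. Sst, which marks the dendrite-targeting interneurons of stratum oriens and the hilus, was at 436, 406 and 305 FPKM in 3M and at 421, 507 and 482 in 22M, with overlap through J11. Its log2 difference was 0.31 (SE 0.151, adjusted p = 0.239), and 0.41 without J11, where the ages no longer overlapped (adjusted p = 0.199). Cort encodes cortistatin, a peptide related to somatostatin and made by a part of the interneurons. It was at 8.65, 8.48 and 4.75 FPKM in 3M and at 13.1, 15.4 and 16.5 FPKM in 22M. Every 22M library lay above every 3M library, a 2.05-fold difference of the means (log2 difference 1.03, SE 0.232, adjusted p = 0.0624), and without J11 the log2 difference was 1.17 (adjusted p = 0.108). The adjusted p of Cort was 0.0352 with array weights and 0.0468 without J15, and 0.0580 to 0.225 under the other alternatives.

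The bases before the transcription starts of this pair are shown because both genes encode peptides of one family. They are the 250 bases upstream of the RefSeq start on GRCm38.p6, read along the minus strand, at chr16:23890845-23891094 for Sst and chr4:149126764-149127013 for Cort, with a matched motif in capitals.
Sst: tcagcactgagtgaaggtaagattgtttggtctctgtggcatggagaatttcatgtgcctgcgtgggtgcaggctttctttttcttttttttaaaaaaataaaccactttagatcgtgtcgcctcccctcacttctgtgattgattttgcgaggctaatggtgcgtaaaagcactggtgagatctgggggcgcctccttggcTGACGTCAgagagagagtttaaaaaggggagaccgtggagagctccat
Cort: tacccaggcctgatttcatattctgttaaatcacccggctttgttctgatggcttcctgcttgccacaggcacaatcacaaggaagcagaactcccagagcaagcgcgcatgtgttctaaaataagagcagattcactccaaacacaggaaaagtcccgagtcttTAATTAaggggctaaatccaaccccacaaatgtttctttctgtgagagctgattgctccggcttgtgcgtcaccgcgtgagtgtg
The capitals in Sst spell the cAMP response element, TGACGTCA, whose first base lies at -48 from the start. Those in Cort spell a homeodomain core, TAATTA, with its first base at -85. The TATA box, searched as TATAAA, was in neither. Searched on both strands, the cAMP response element was found in 1.55% of 32851 RefSeq windows of this length, the homeodomain core in 4.84% and the TATA box in 12.4%. Of the 31 members, 25 had a window in the RefSeq table. The cAMP response element was found for 1 of them (Sst), the homeodomain core for 2 (Cort and Sp8) and the TATA box for 3 (Gad1, Vip and Sp8). A match describes the letters of the window and not a site in use.

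Npy, a peptide of several interneuron classes that dampens glutamate release, was at 166, 110 and 117 FPKM in 3M and at 164, 169 and 165 in 22M. J11 was at the level of the 22M libraries and the other young libraries were below them. For Npy the log2 difference came to 0.36 (SE 0.157, adjusted p = 0.196), and 0.55 without J11 (SE 0.0776, adjusted p = 0.0772). Crhbp, a secreted protein that binds corticotropin-releasing hormone, was at 12.6, 15.8 and 14 FPKM in 3M and at 16.6, 23.1 and 24.7 in 22M. The ages did not overlap (log2 difference 0.57, SE 0.169, adjusted p = 0.0988), nor without J11 (0.49, adjusted p = 0.204). The hormone itself, Crh, was at 1.37 to 2.90 FPKM, highest in J11, with a log2 difference of 0.00 (adjusted p = 1), and 0.23 without J11 (adjusted p = 0.531). Vip, the peptide of interneurons that mostly inhibit other interneurons, was at 8.79 to 12.4 FPKM in 3M and 11.7 to 14.2 in 22M (log2 difference 0.30, adjusted p = 0.245, and 0.27 without J11, adjusted p = 0.403). Cck, made by a class of basket cells and also by pyramidal cells, was at 282 to 487 FPKM in 3M and 309 to 371 in 22M (log2 difference -0.15, adjusted p = 0.664, and -0.34 without J11, adjusted p = 0.248). Of the 7 genes none passed the adjusted p by limma or by the own-variance model. Cort and Crhbp were higher at an unadjusted p under 0.05 by both, against 10.6% (limma) and 9.06% (own variance) of all genes.

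Neither the calcium-binding proteins nor nitric oxide synthase passed the test. Pvalb, the calcium buffer of fast-spiking basket cells, was at 64.6, 122 and 58.0 FPKM in 3M and at 58.2, 47.9 and 49.8 FPKM in 22M. J13 stood far above the rest and the ages overlapped at the level of J15 and 72. Pvalb had a log2 difference of -0.57 (SE 0.273, adjusted p = 0.234), and -0.69 without J11 (adjusted p = 0.250). J13 was also the library with the highest sum of thalamic and habenular markers (210 FPKM, 81.4 to 165 in the others), a list that holds the member Calb2. A list of thalamic reticular nucleus and zona incerta genes was highest in J11 instead (216 FPKM, 173 in J13 and 92 to 97 in the others). It holds Pvalb itself and the members Dlx5 and Dlx6. Pvalb made up 122 of the 173 FPKM in J13, so the place of J13 on this list rests largely on Pvalb. The part of other tissue in the level of Pvalb was not tested. Calb2 (calretinin), found in interneurons that target interneurons and also in mossy cells, was at 22.6 to 39.1 FPKM in 3M and 21.0 to 31.6 in 22M (log2 difference -0.14, adjusted p = 0.725, and -0.13 without J11, adjusted p = 0.806).

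Nos1, the neuronal nitric oxide synthase of neurogliaform and ivy cells, was at 7.69, 7.5 and 3.01 FPKM in 3M and at 9.72, 12 and 12.1 FPKM in 22M. All 22M libraries were above all 3M libraries, with J15 lowest. Nos1 had a log2 difference of 0.93 (SE 0.332, adjusted p = 0.138), and 1.14 without J11 (adjusted p = 0.152). None of these 3 genes passed the adjusted p by limma or by the own-variance model. Nos1 was higher at an unadjusted p under 0.05 by limma (10.6% of all genes), and by the own-variance model none was (9.06%).

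Among the lineage factors, Dlx5 and Dlx6 were highest in J11, while Satb1, Nr2f2 and Maf were higher in all 22M libraries than in any 3M library. Dlx6 was at 12.7, 3.42 and 2.34 FPKM in 3M and at 1.75, 2.15 and 3.23 FPKM in 22M, and J11 was 4.94 times the mean of the other 5 libraries. Its log2 difference was -0.91 (SE 0.560, adjusted p = 0.340) with J11 and -0.25 without it (adjusted p = 0.627). Dlx5, its neighbour on chromosome 6, was at 18.1, 5.89 and 5.44 FPKM in 3M and at 5.54, 6.77 and 7.37 in 22M. Outside J11 the ages overlapped, and the log2 difference turned from -0.34 (adjusted p = 0.641) to 0.19 without J11 (adjusted p = 0.508). Dlx1 varied between 1.05 and 4.23 FPKM within 3M and between 1.44 and 3.92 within 22M (log2 difference -0.16, adjusted p = 0.857, and 0.07 without J11, adjusted p = 0.956). Lhx6, the factor of interneurons from the medial eminence, was at 2.98 to 6.70 FPKM in 3M and 4.01 to 9.51 in 22M (log2 difference 0.37, adjusted p = 0.540, and 0.41 without J11, adjusted p = 0.608).

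Satb1, a chromatin organiser that matures Sst and Pvalb interneurons, was at 7.97, 11.6 and 11.1 FPKM in 3M and at 18.2, 15.8 and 21.8 FPKM in 22M. All 22M libraries lay above all 3M libraries. The log2 difference was 0.84 (SE 0.179, adjusted p = 0.0594), and 0.68 without J11 (adjusted p = 0.112), and the adjusted p was 0.0481 with array weights and 0.0561 to 0.274 under the other alternatives. Satb1 is known from other neurons as well. Nr2f2, a nuclear receptor of caudal-eminence interneurons and of endothelial cells, was at 10.6, 11.8 and 6.78 FPKM in 3M and at 12.1, 15 and 15.8 in 22M without overlap (log2 difference 0.56, SE 0.216, adjusted p = 0.159, and 0.63 without J11, adjusted p = 0.212). The list of endothelial and mural genes that holds it summed to 141 to 145 FPKM in 3M and 113 to 170 in 22M. Maf, a factor of Sst and Pvalb interneurons that microglia also express, was at 6.56, 8.49 and 7.42 FPKM in 3M and at 8.73, 9.69 and 10.6 in 22M, again without overlap (log2 difference 0.35, adjusted p = 0.151, and 0.26 without J11, adjusted p = 0.298). The microglial list, which includes Maf, summed to 218 to 298 FPKM in 3M and 200 to 215 in 22M, the opposite direction.

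Id2, an inhibitor of helix-loop-helix factors that marks neurogliaform cells and is also expressed by other cells, was at 76.8, 84.2 and 45.6 FPKM in 3M and at 60.6, 50.4 and 46.4 in 22M (log2 difference -0.35, adjusted p = 0.382, and -0.25 without J11, adjusted p = 0.615). Its FPKM passed from one transcript to the other between libraries. Id2-201 held 98.3% and 99.0% of it in J11 and J13 but 5.52% in J15 and 14.3% to 41.9% in 22M, and Id2-202 held 92.5% in J15 and 56.6% to 83.2% in 22M. Of the 8 factors tested none passed the adjusted p by limma or by the own-variance model. At an unadjusted p under 0.05, 3 were higher by limma (10.6% of all genes) and 2 by the own-variance model (9.06%).

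The surface and secreted markers held the one gene that passed the test. Erbb4 encodes the receptor tyrosine kinase through which neuregulin acts on interneurons, and it lies at chr1:68032186-69108059 on the minus strand of GRCm38. It was at 4.30, 3.85 and 2.88 FPKM in 3M and at 6.95, 8.55 and 10.1 FPKM in 22M, with every 22M library above every 3M library. The mean rose from 3.68 ± 0.722 to 8.52 ± 1.55 FPKM (SD, n = 3 libraries each), a log2 difference of 1.11 (SE 0.189, adjusted p = 0.0479). Its main transcript, Erbb4-202 with 27 exons, gave 61.9% to 83.2% of the gene's FPKM in each library and was at 2.03 to 3.09 FPKM in 3M and 5.29 to 7.14 in 22M. Without J11 the log2 difference was 1.22, but the adjusted p was 0.0895, and no single library could be left out with the call kept (adjusted p of 0.0506 to 0.152). After each library was corrected for length and GC content the call was lost as well (log2 difference 0.68, adjusted p = 0.175).

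The 250 bases before the RefSeq start of Erbb4 (chr1:69108060-69108309, minus strand, GRCm38.p6) are shown as those of the member that rose. None of the 3 motifs searched above was among its letters.
Erbb4: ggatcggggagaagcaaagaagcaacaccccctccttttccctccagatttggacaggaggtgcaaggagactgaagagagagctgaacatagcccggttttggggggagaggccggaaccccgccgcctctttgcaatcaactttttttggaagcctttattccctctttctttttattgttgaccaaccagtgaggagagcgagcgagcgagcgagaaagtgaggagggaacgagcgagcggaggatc
Its GC content was 54.0%, and the median over all windows was 52.4%.

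**Figure D4:**
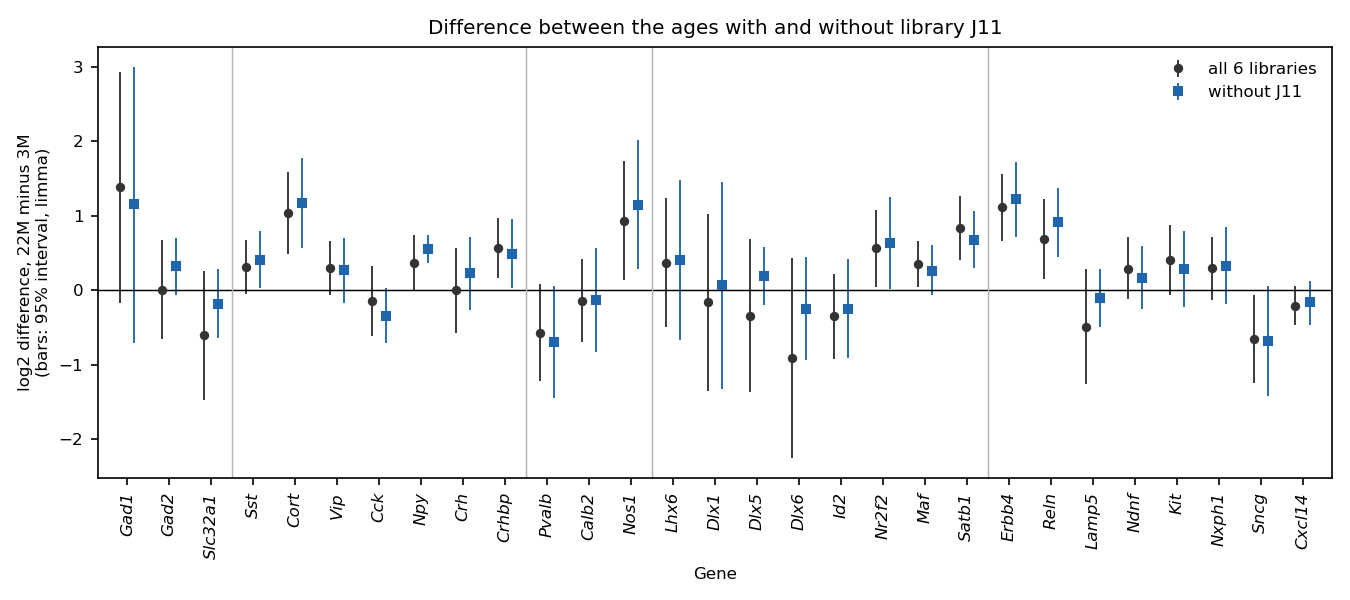
Log2 difference between 22M and 3M of each member with its 95% interval from limma, for all 6 libraries (circles) and without J11 (squares). With all 6 libraries the intervals of Erbb4 (0.66 to 1.56), Cort (0.48 to 1.58) and Satb1 (0.41 to 1.27) lay above 0. Those of Crhbp, Nos1, Reln, Nr2f2 and Maf did too, with lower ends of 0.04 to 0.17, and that of Sncg (-1.25 to -0.07) lay below 0. These intervals are not adjusted for the number of genes. The negative differences of Slc32a1, Dlx6 and Lamp5 shrank without J11.

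Reln encodes Reelin, a secreted glycoprotein made in the adult hippocampus by interneurons of the molecular layers and by remaining Cajal-Retzius cells. It was at 5, 3.47 and 2.64 FPKM in 3M and at 5.45, 5.83 and 7.23 FPKM in 22M, without overlap although J11 came close. The log2 difference was 0.69 (SE 0.226, adjusted p = 0.118), and 0.91 without J11 (adjusted p = 0.106). Ndnf, a marker of neurogliaform cells and Cajal-Retzius cells, was at 1.19 to 1.70 FPKM in 3M and 1.71 to 2.11 in 22M (log2 difference 0.29, adjusted p = 0.319, and 0.17 without J11, adjusted p = 0.581). The Cajal-Retzius list, with 7 of 10 genes in the table, summed to 88.4 to 110 FPKM in 3M and 81.4 to 101 in 22M. Its factors Lhx5, Lhx1 and Ebf2 were absent, while Trp73, Nhlh2 and Ebf3 were in the table, at no more than 1.06, 1.83 and 1.05 FPKM. Of its genes, 4 (Reln, Ndnf, Calb2 and Cxcl14) are members here.

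Sncg, gamma-synuclein, marks a class of Cck interneurons and was the only member whose 22M values were all lower. It was at 11, 13.2 and 10.2 FPKM in 3M and at 8.32, 8.97 and 4.62 FPKM in 22M, with 78 lowest. The log2 difference was -0.66 (SE 0.248, adjusted p = 0.153), and -0.68 without J11 (adjusted p = 0.246). Lamp5, a membrane protein of neurogliaform cells, was at 37.7, 15.6 and 18.0 FPKM in 3M and at 15.8, 13.2 and 17.9 in 22M. J11 was 2.34 times the mean of the other libraries, and the log2 difference of -0.49 (adjusted p = 0.369) was -0.11 without it (adjusted p = 0.713). Kit, a receptor tyrosine kinase, and Nxph1, a secreted ligand of neurexins, had log2 differences of 0.40 (adjusted p = 0.234) and 0.30 (adjusted p = 0.328). Without J11 they were 0.29 (adjusted p = 0.442) and 0.33 (adjusted p = 0.395). Cxcl14, a chemokine, had a log2 difference of -0.21 (adjusted p = 0.259), and -0.16 without J11 (adjusted p = 0.457). Of these 8 genes limma gave 2 higher and 1 lower at an unadjusted p under 0.05, against 10.6% and 16.4% of all genes. The own-variance model called none at the adjusted p and 1 higher at the unadjusted p (9.06% of all genes).

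Among the libraries, J15 had the lowest value of 14 of the 29 members (11.6% of all genes were lowest there) and the highest of 1 (Dlx1). The library 78 had the highest value of 11 members (20.1% of all genes), J11 of 7, J13 of 6, 76 of 4 and 72 of 0. The 3M libraries ranged more widely than the 22M libraries for 24 of 29 members, against 52.9% of all genes, with a median ratio of highest to lowest of 1.75 in 3M and 1.31 in 22M. J15 was lower than J13 for 25 of 29 members (86.2%, all genes 50.9%), the exceptions being Npy, Dlx1, Lamp5 and Ndnf.

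Levels were also read relative to the GABA genes of the same library, as log2 differences from the mean of Gad1, Gad2 and Slc32a1. On this scale Cort, Nos1 and Erbb4 were higher in every 22M library than in any 3M library, with differences between the ages of 0.77, 0.68 and 0.85 (0.74, 0.72 and 0.79 without J11). Dlx6, Id2 and Sncg were lower in every 22M library, with differences of -1.17, -0.61 and -0.92 (-0.67, -0.68 and -1.11 without J11). Each had an exact two-sided permutation p of 0.1, the smallest that 3 libraries against 3 allow (0.433 adjusted over 26 members), so no call was possible. The share of all genes without overlap was not computed on this scale, so these members cannot be set against it. Since the Gad1 transcripts varied between the 3M libraries, Gad2 alone was used as an alternative chosen after the data were seen. Cort, Nos1, Satb1, Erbb4, Reln, Crhbp and Nr2f2 were then higher in every 22M library, with differences of 0.56 to 1.11, and Dlx5 and Dlx6 lower, with -0.34 and -0.91 (exact permutation p = 0.1, adjusted 0.289). Gad2 was highest in J11 (50.8 FPKM), so taking it off lowers J11 the most for any gene. The share of all genes without overlap was not computed here either. Without J11, the difference relative to Gad2 was 0.85 for Cort, 0.82 for Nos1, 0.36 for Satb1, 0.90 for Erbb4, 0.59 for Reln, 0.17 for Crhbp and 0.31 for Nr2f2. For Dlx5 it was then -0.13 and for Dlx6 -0.57.

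The difference between the ages moved with transcript length over the table as a whole. Across 13027 genes, it was larger for longer transcripts (Spearman's rho 0.516, a description across genes, which are not independent replicates and share the libraries). The median length was 1922 bases for the members and 2922 for all genes, but Erbb4 had 10561 bases (lengths averaged over the transcripts of a gene, weighted by FPKM). With each library corrected for length and GC content, 0 members rose or fell by limma, against 0.238% and 0.123% of all genes. At the unadjusted p 7 were higher and 0 lower (8.35% and 9.38% of all genes), at the study thresholds 6 were higher and 0 lower (3.23% and 2.02% of all genes), and the median was 0.23 over the members and -0.02 over all genes. The short peptide genes gained, with log2 differences of 0.67 for Sst, 0.68 for Npy, 0.72 for Crhbp and 1.42 for Cort (adjusted p = 0.134, 0.136, 0.139 and 0.0720). Reln dropped to 0.26 and Nos1 to 0.59.

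The division of FPKM between transcripts differed between libraries for some members. Of the members, 12 had 1 transcript in the table and 17 had several, and for 7 of these (Cck, Dlx5, Gad1, Id2, Kit, Lhx6 and Maf) the most abundant transcript was not the same one in all libraries. Kit-204, for example, held 87.6% of the FPKM of Kit in 76 and 9.03% in 78. Genes on the opposite strand overlap exons of Dlx1, Dlx6, Maf, Nos1, Nr2f2, Reln, Satb1 and Slc32a1 in GENCODE, and whether the quantification used the strand is not given in the sources used here.

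Further interneuron genes and genes of GABA handling were read beside the members. Of 30 further interneuron genes, 28 were tested and 0 rose or fell by limma (0.920% and 1.21% of all genes), with a median log2 difference of 0.11. At the unadjusted p 4 were higher and 1 lower, against 10.6% and 16.4% of all genes. The own-variance model called 0 and gave 2 and 1 at its unadjusted p, against 9.06% and 14.9%. Among the smallest p-values were those of Afap1, an actin-binding adaptor (log2 difference 0.52, adjusted p = 0.0665), Calb1, the calcium buffer calbindin that granule cells also make (-0.47, adjusted p = 0.101), and Prox1, a factor of caudal-eminence interneurons and of granule cells (0.67, adjusted p = 0.134). Without J11 these differences were 0.54, -0.35 and 0.44 (adjusted p = 0.125, 0.193 and 0.221). Afap1 passed the adjusted p with array weights (0.0374), and Prox1 without J15 (log2 difference 0.92, adjusted p = 0.0479). Tac1, which encodes substance P and is abundant in striatal projection neurons, was at 83.2 FPKM in J11 and 4.82 to 9.21 in the others. Of 8 genes of GABA uptake and breakdown, 7 were tested and 0 rose or fell by limma, with a median of 0.07. At the unadjusted p 0 were higher and 1 lower, against 10.6% and 16.4% of all genes. The own-variance model called 0 and gave the same unadjusted counts, against 9.06% and 14.9%. The astrocytic GABA transporter Slc6a11 had the smallest p of them, at 51.4, 58.0 and 41.8 FPKM in 3M and 35.7, 39.7 and 36.0 FPKM in 22M. Its values did not overlap (log2 difference -0.42, adjusted p = 0.106), nor without J11 (-0.40, adjusted p = 0.204), and without J15 it passed (log2 difference -0.55, adjusted p = 0.0479).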

How the data were processed

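Hippocampal mRNA was measured in 6 libraries, grouped into 3M and 22M by the age in the labels. The values the authors deposited are FPKM, given for each of 25409 protein-coding transcripts in every library. The submitters' processing notes name HISAT2 and GRCm38 (mm10), and neither the quantifier nor the annotation release is given in the sources used here. FPKM divide fragments by transcript length and library total, so differences in composition or RNA quality stay in the values, and no counting interval can be computed without counts.

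FPKM were summed per gene. Genes averaging 0.5 FPKM or more entered the test, limma (version 3.58.1, R 4.3.3, two-sided, with a variance trend) on log2(FPKM + 0.5), with Benjamini-Hochberg adjustment over all of them. A log2 difference on this scale understates that of low genes. A gene is said to have risen or fallen at an adjusted p under 0.05. The correction for length and GC content used natural splines with 4 degrees of freedom each. Levels relative to the GABA genes were compared by exact permutation. Coordinates and transcripts came from GENCODE vM21 (99.7% of transcript identifiers matched without their version, 94.8% with it), and promoter windows from RefSeq. The limma fit and the removal of a length trend were checked on simulated data with independent noise. No library of different composition was simulated, and the permutation test and the own-variance model were not checked.

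All members are named. Of the further lists, up to 4 interneuron genes and up to 2 GABA uptake genes by smallest p were to be named, and some of these are not reported here. The choice of Tac1, Drd2, Adora2a and Pde10a followed a look at their values. The members and lists were chosen with earlier results of these data known. Alternatives were other pseudocounts, filters and scalings, limma without trend, array weights, the variance of each gene alone, the most abundant transcript, the length and GC correction, and leaving out each library or J11 and 78 together. Added after the data were seen were the length and GC correction without J11 and Gad2 as the reference.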

Additional observations from a re-analysis of the deposited data

How the results depend on the processing

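The number of members that rose (1, with 0.920% of all genes) was 0 by limma without trend (0.176%) and on the most abundant transcript (0.138%). It was 0 as well with the own variance of each gene (0%) and with the length and GC correction (0.238%). The same held without J11 and 78, and with the correction and without J11 together (added). With array weights it was 3 (Cort, Satb1 and Erbb4), where 4.26% of all genes rose. With single libraries left out it was 0 to 1 (the 1 being Cort, without J15, with 1.39% of all genes). The count higher at the study thresholds (5) was 8 after quantile normalization (4.7% of all genes), 3 with the own variance (3.04%), and 3 to 7 with single libraries left out. The count lower at those thresholds (1) was 2 on the most abundant transcript (4.7% of all genes). It was 0 with the own variance (3.07%), with the length and GC correction (2.02%), without J11 and 78, and with the correction without J11. With single libraries left out it was 0 to 5, the 5 being without J15 (6.05%). The count without overlap and lower in 22M (1) was 2 on the most abundant transcript (20% of all genes), 2 without J11 and 78, and 0 with the length and GC correction (14.5%). With single libraries left out it was 1 to 6, the 6 again without J15 (28.8%). The shares of all genes without J11 and 78, and with the correction without J11, are not given here. The counts of members under those settings therefore cannot be set against a share. The direction of single members turned as follows, and the cause was not tested. Gad2 was at 0.00 with a pseudocount of 1, just below 0, and -0.22 with the length and GC correction. Cck was at 0.02 after quantile normalization and 0.23 with the correction, Crh at -0.01 with a pseudocount of 1 and -0.06 with array weights, and Kit at -0.38 on its most abundant transcript. Calb2 was at 0.11 with the correction, 0.05 without J11 and 78, and 0.09 with the correction without J11. That last setting also turned Dlx1 (0.07), Dlx5 (0.44, and 0.11 without J11 and 78), Lamp5 (0.02), Ndnf (-0.23, and -0.12 with the correction) and Cxcl14 (0.04, and 0.03 with the correction). With single libraries left out, Gad2 ran from -0.22 to 0.32 (-0.10 without J13, -0.22 without J15, -0.03 without 76, -0.09 without 78), Cck from -0.34 to 0.05, Crh from -0.20 to 0.23 (-0.02 without J13, -0.20 without J15, -0.04 without 72, -0.05 without 78), Calb2 from -0.34 to 0.05, Dlx1 from -0.68 to 0.13 and Dlx5 from -0.64 to 0.19. No paired analysis was possible because the labels match no library of one age to a library of the other. Without read counts the effect of depth could not be assessed, and 3 libraries a group limit the precision.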
